A study of Homo sapiens with 9 samples.

Results

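MDM2, MDM4 and 7 core target genes of the transcription factor p53 (CDKN1A, BAX, BBC3, PMAIP1, FAS, TP53I3 and RRM2B) were followed in EPC2, which the labels give as a normal squamous cell line of the human esophagus. These 9 genes were taken by symbol from a table of 64253 genes, each symbol matched 1 row, and all 9 had enough reads to be among the 16366 genes tested. RNA sequencing of polyadenylated RNA was made from 3 libraries of cells transfected with a FOXF1 plasmid by Lipofectamine 2000 (a lipid reagent), 3 libraries of cells given an empty vector with the same reagent, and 3 libraries of untreated cells. FOXF1 encodes a forkhead transcription factor. All 3 groups are the same line, no other allele or agent is named, and neither the time after transfection nor the share of cells that took up plasmid is given in the sources used here. Each group is called a biological triplicate in the design text. The p-values rest on the spread of libraries within groups, estimated for each gene over all 3 groups together. The fit draws each estimate toward a trend over all tested genes, so part of it is borrowed from other genes. In bulk RNA, fewer cells that express a gene and less RNA per cell cannot be told apart. The gene of p53 itself is not analysed here.

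The p53 pathway is a stress circuit. The p53 protein is kept low by MDM2, an E3 ubiquitin ligase that marks it for degradation, and by MDM4, a relative of MDM2 that binds p53 and blocks its activity. DNA damage and other stresses release p53, which then switches on genes that halt the cell cycle (CDKN1A), trigger death through mitochondria or death receptors (BAX, BBC3, PMAIP1, FAS), or adjust redox and nucleotide metabolism (TP53I3, RRM2B), and it also switches on MDM2, which closes a negative feedback loop. Several of these genes have other inducers as well: PMAIP1 and BBC3 also respond to the endoplasmic reticulum stress pathway. Transcript levels do not measure p53 protein, its phosphorylation or its binding to DNA.

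MDM2 has a second promoter inside its first intron, through which p53 acts, and the sequences shown here are the windows among these genes that hold a match to the p53 response element. RefSeq promoter windows (250 bases before to 50 after a start, GRCh38.p14) were given for 8 of the 9 genes, in 13 windows. RRM2B was not searched. The windows were searched on both strands for the p53 response element, a palindrome of 20 bases made of 2 adjacent repeats, allowing up to 3 mismatches and none at the core C and G of either repeat. Of all 35114 windows 1.12% held a match. In these genes 4 windows did, of 3 genes: MDM2 (the same site in both windows of the inner promoter, 2 mismatches), FAS (2 mismatches) and PMAIP1 (3 mismatches). A match is a description of the letters, and nothing beyond these windows of 300 bases was searched. Sites with a mismatch at the core, or with bases between the repeats, were not sought, so a window can hold sites that are not marked. Capitals mark the match in the 250 bases upstream of a start of MDM2 (chr12:68808767-68809016, plus strand) and of PMAIP1 (chr18:59899746-59899995, plus strand), and the FAS site alone (chr10:88991309-88991328, plus strand) is given as 20 bases.
MDM2: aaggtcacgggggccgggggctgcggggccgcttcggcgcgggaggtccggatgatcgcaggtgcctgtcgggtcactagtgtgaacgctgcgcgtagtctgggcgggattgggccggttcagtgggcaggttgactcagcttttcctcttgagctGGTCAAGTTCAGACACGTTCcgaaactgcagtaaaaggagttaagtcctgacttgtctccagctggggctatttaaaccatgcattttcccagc
PMAIP1: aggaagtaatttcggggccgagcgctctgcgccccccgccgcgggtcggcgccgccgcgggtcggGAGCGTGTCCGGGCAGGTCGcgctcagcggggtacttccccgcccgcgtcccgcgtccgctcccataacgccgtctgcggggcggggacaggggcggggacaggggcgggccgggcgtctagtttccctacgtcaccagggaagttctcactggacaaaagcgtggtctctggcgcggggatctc
FAS: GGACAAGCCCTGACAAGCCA
The MDM2 site (chr12:68808923-68808942) is intronic in 7 of the 34 MDM2 transcripts of GENCODE 29, exonic in none, and lies outside the other 27. The PMAIP1 site lies outside all 3 PMAIP1 transcripts, upstream of the gene. The FAS site is intronic in 11 of 20 FAS transcripts, exonic in 2 and outside the other 7. The gene bodies themselves are annotated at chr12:68808176-68850686 (MDM2, plus strand, all gene coordinates from GENCODE 29 on GRCh38), chr18:59899948-59904306 (PMAIP1, plus strand) and chr10:88990582-89015785 (FAS, plus strand).

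Library totals ran from 34390666 to 39973289 counts, so that a gene without a read could have had up to 0.0681 to 0.0883 CPM (counts over TMM-scaled library size, 3 counts taken as the limit). FOXF1 had 367, 184 and 141 reads in the plasmid libraries (9.12, 5.41 and 3.76 CPM, a coefficient of variation of 45.0%). It had 0, 0 and 6 reads in the empty vector libraries and 1, 0 and 0 in the untreated ones. The labels thus hold for the transfected gene, at a level that was uneven among the plasmid libraries. The markers went against the squamous label: of 9 squamous markers 1 (KRT6A) reached 1 CPM in any library, and TP63, a p53 relative that marks squamous basal cells, had no read in any library, whereas all 6 simple-epithelial and 4 of 7 mesenchymal markers passed 1 CPM. Summed squamous markers were at 1.09 to 1.72 CPM with the FOXF1 plasmid, 1.16 to 1.64 CPM with the empty vector and 1.42 to 2.42 CPM in untreated cells. Of 4 leukocyte markers CD14 had 306 to 462 reads in every library, and PTPRC, CD3E and LYZ had no read. Mitochondrially encoded genes took 13.7% to 14.7% of counts with the FOXF1 plasmid, 10.3% to 11.7% with the empty vector and 18.6% to 22.4% in untreated cells.

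The 9 genes spanned a wide range of abundance. Per kilobase of annotated exon, BAX was the most abundant, at 38.1 CPM per kb with the FOXF1 plasmid, 34.5 with the empty vector and 42.5 in untreated cells, followed by CDKN1A at 13.5, 13.6 and 10.5 CPM per kb. TP53I3 (3.53, 3.45 and 3.78 CPM per kb, in the same order of groups) and BBC3 (3.24, 3.50 and 2.15) came next, and their libraries overlapped in both transfected groups but not in untreated cells. PMAIP1 (0.872, 1.08 and 0.755) and MDM4 (0.822, 0.858 and 0.782) overlapped with the FOXF1 plasmid and in untreated cells, whereas with the empty vector every PMAIP1 value lay above every MDM4 value. RRM2B (0.470, 0.576 and 0.465) and FAS (0.469, 0.442 and 0.419) overlapped in every group. MDM2 had the lowest mean of the 9 in every group, at 0.255, 0.419 and 0.328 CPM per kb, but overlapped with FAS except with the FOXF1 plasmid. These levels divide by the summed length of all annotated exons, which for MDM2 is 13284 bases, so a gene with many rarely used exons is placed too low. MDM2 exons overlap those of CPM (a carboxypeptidase gene), of the pseudogene AC025423.2 and of the antisense gene AC025423.4, CDKN1A exons overlap DINOL on the opposite strand, BBC3 exons overlap 2 microRNA genes and TP53I3 exons overlap FAM228B, so reads there are of uncertain origin.

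**Figure D1:**
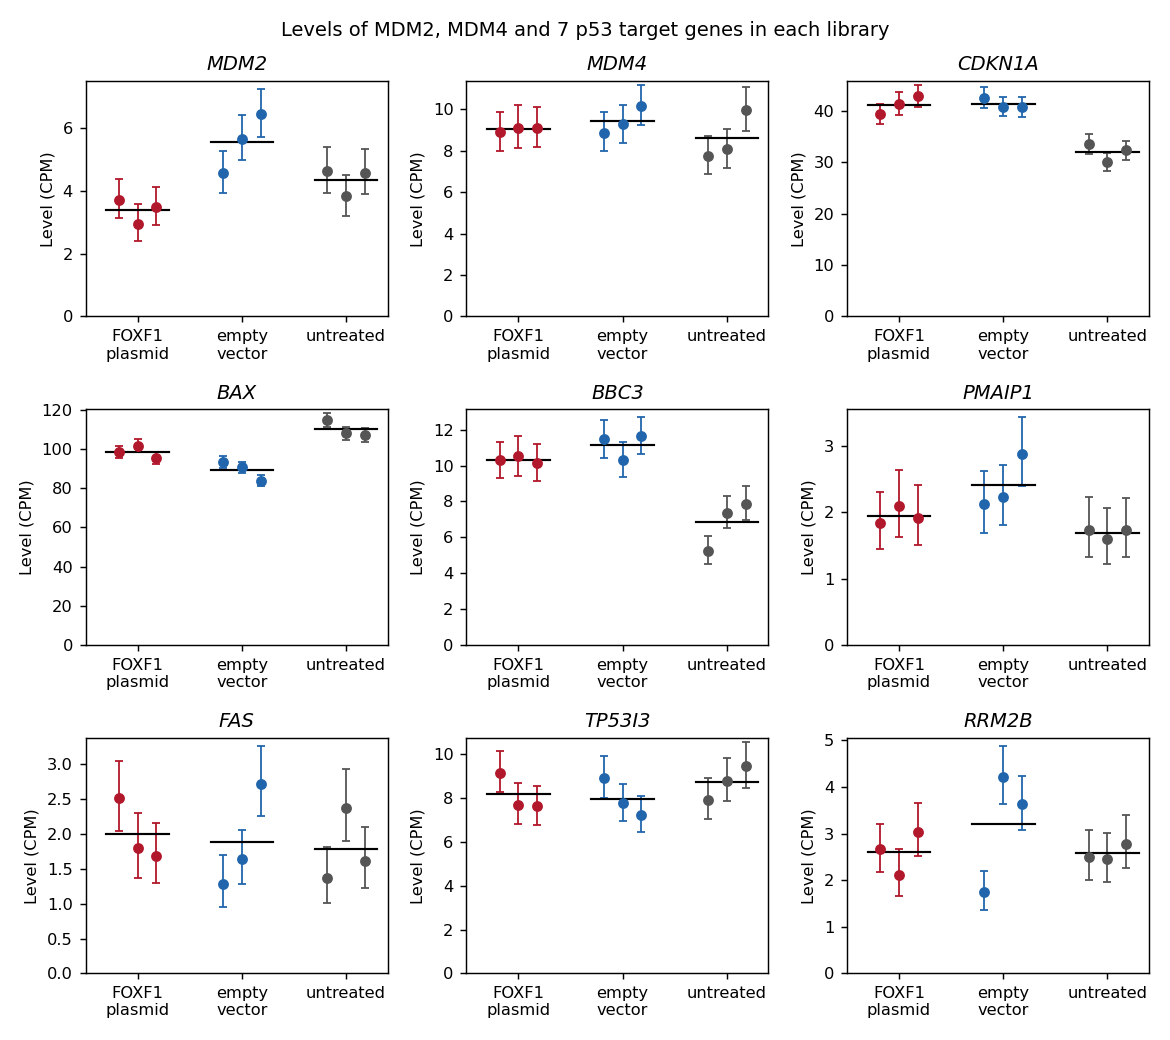
Levels of the 9 genes in each library (CPM on TMM-scaled library sizes, y axes from 0). Points are libraries with exact 95% Poisson intervals of the counts, and black lines are group means. The 3 CDKN1A points of the FOXF1 plasmid and of the empty vector all lie above the untreated ones, and the 3 MDM2 points of the FOXF1 plasmid lie below all others.

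MDM2 differed most between the transfected groups among the 9 genes, in a comparison that asks what FOXF1 adds to transfection, but the difference did not pass the test over all genes. MDM2 had 3.73, 2.94 and 3.49 CPM with the FOXF1 plasmid (150, 100 and 131 reads), against 4.57, 5.67 and 6.46 CPM with the empty vector (181, 250 and 278 reads). Untreated cells had 4.63, 3.83 and 4.59 CPM (163, 139 and 162 reads). The 3 libraries of the FOXF1 plasmid were lower than each of the other 6. Over the empty vector the log2 fold change was -0.71 (95% interval -1.08 to -0.35), a level 0.609 times as high. The quasi-likelihood test of edgeR gave an adjusted p of 0.162 (Benjamini-Hochberg over all genes tested), and 0.000433 before adjustment. A gene is called changed at an adjusted p below 0.05. This held for 9 of 16366 genes in this comparison (0.055%), FOXF1 among them, and for 0 of the 9 genes described here. Before adjustment 9.43% of all genes had a p below 0.05 (4.34% as lower and 5.09% as higher), among them 2 of the 9: MDM2 as lower and BAX as higher.

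The MDM2 difference against the empty vector was called in 1 of the 9 fits that left out a single library. Without empty vector replicate 1, which had the lowest MDM2 level of its group, its log2 fold change stood at -0.84 with an adjusted p of 0.0134. In that fit 326 genes were called, against 9 with all libraries. Leaving out any 1 of the other 8 libraries gave no MDM2 call, with adjusted p up to 0.987. With no filter on low counts MDM2 was also called (log2 fold change -0.73, adjusted p = 0.0354). Across 16213 genes the fold changes of this comparison were higher at higher GC content (Spearman's rho 0.387, genes not being independent replicates), and the longest MDM2 transcript has 41.9% GC. With offsets for GC content and length the MDM2 log2 fold change was -0.57 (adjusted p = 0.251). DESeq2 gave a log2 fold change of -0.70 and, without its filter on low means, no call for any of the 9 genes.

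Against untreated cells MDM2 did not pass the test in either transfected group. Under FOXF1 plasmid its log2 fold change was -0.36 (95% interval -0.73 to 0.02, adjusted p = 0.253), and under empty vector it was 0.36 (95% interval -0.01 to 0.72, adjusted p = 0.167; edgeR quasi-likelihood test). The empty vector and untreated libraries overlapped, since empty vector replicate 1 lay at 4.57 CPM and untreated replicates 1 and 3 at 4.63 and 4.59 CPM. Both comparisons use the same untreated libraries. With scaling by library totals alone the empty vector difference was called (log2 fold change 0.60, adjusted p = 0.0151), a setting that moved the median of all genes up by 0.245. Over the 21 alternatives this MDM2 log2 fold change ran from 0.21 to 0.60, and it was called in 1 of them.

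MDM4 (chr1:204516379-204558120, plus strand), the partner of MDM2 in holding p53 down, showed no comparable pattern. It had 8.90, 9.12 and 9.12 CPM with the FOXF1 plasmid, against 8.88, 9.28 and 10.2 CPM with the empty vector, and untreated cells had 7.76, 8.08 and 9.98 CPM. The groups overlapped throughout. Its log2 fold change was -0.06 (95% interval -0.33 to 0.21) for FOXF1 plasmid over empty vector, 0.07 (-0.20 to 0.34) for FOXF1 plasmid over untreated and 0.13 (-0.13 to 0.40) for empty vector over untreated, with adjusted p of 0.931, 0.814 and 0.532 (edgeR). An MDM4 change of the size seen for MDM2 against the empty vector lay outside its interval.

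The count of MDM2 reads per MDM4 read needs no scaling between libraries. It was 0.419, 0.323 and 0.383 with the FOXF1 plasmid, against 0.514, 0.611 and 0.636 with the empty vector, and 0.597, 0.474 and 0.460 in untreated cells. The FOXF1 plasmid libraries lay below the other 6, with means of 0.375 ± 0.049, 0.587 ± 0.064 and 0.511 ± 0.075 in that order of groups (SD, n = 3). Reads of CDKN1A per MDM2 read were 10.6, 14.1 and 12.3 with the FOXF1 plasmid, against 9.33, 7.19 and 6.31 with the empty vector, and 7.25, 7.83 and 7.03 in untreated cells. A ratio does not remove a trend with GC content, and the longest CDKN1A and MDM2 transcripts have 58% and 41.9% GC. These pairs of genes were chosen after their values were seen, and no test is given for them. With 3 libraries against 3, an exact permutation test cannot go below 0.10.

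**Figure D2:**
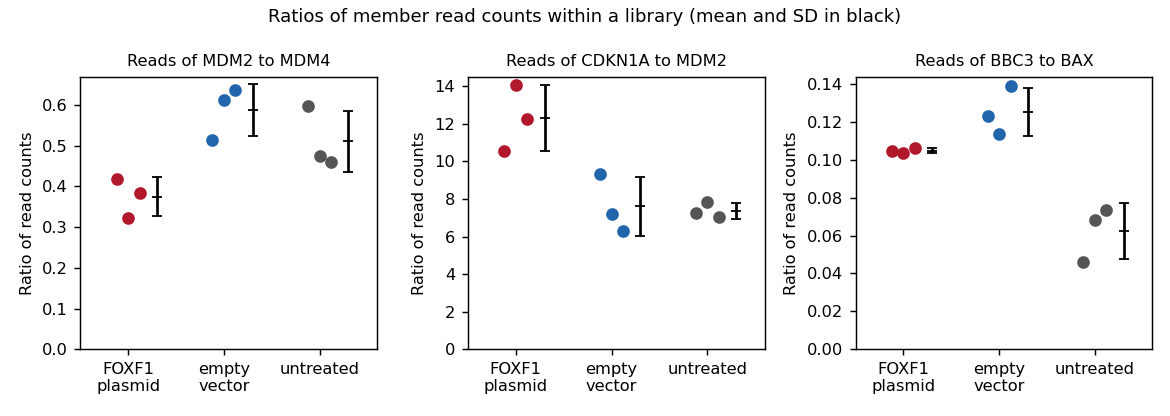
Read counts of 1 gene per read of another within each library, for 3 pairs (y axes from 0). Coloured points are libraries, and black marks are means with SD (n = 3). MDM2 reads per MDM4 read are lowest with the FOXF1 plasmid, and BBC3 reads per BAX read lie between 0.103 and 0.139 in the transfected groups, against 0.046 to 0.074 in untreated cells.

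CDKN1A (chr6:36676460-36687339, plus strand), which encodes the cyclin-dependent kinase inhibitor p21, was higher in both transfected groups than in untreated cells and did not differ between them beyond its spread. It had 39.4, 41.4 and 42.8 CPM with the FOXF1 plasmid and 42.6, 40.8 and 40.8 CPM with the empty vector, against 33.6, 30.0 and 32.3 CPM in untreated cells. All 6 transfected libraries lay above all 3 untreated ones. Over untreated cells CDKN1A rose under FOXF1 plasmid (log2 fold change 0.37 ± 0.08 SE, adjusted p = 0.00172) and under empty vector (0.37 ± 0.08 SE, adjusted p = 0.00058; edgeR quasi-likelihood test). Between FOXF1 plasmid and empty vector the log2 fold change was -0.01 with a 95% interval of -0.16 to 0.15 (adjusted p = 0.988). The fold over untreated cells was 1.29 in both comparisons, and tested against a minimum fold of 1.2 (glmTreat) neither was called (adjusted p = 0.519 for the FOXF1 plasmid and 0.238 for the empty vector).

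Of the 4 genes that promote cell death, BBC3 rose, BAX fell with the empty vector, and PMAIP1 and FAS did not pass the test. BBC3 (chr19:47220822-47232766, minus strand) encodes PUMA, a protein of the BH3-only class that neutralises survival proteins of the BCL-2 family. It had 10.3, 10.5 and 10.1 CPM with the FOXF1 plasmid and 11.5, 10.3 and 11.6 CPM with the empty vector, against 5.26, 7.36 and 7.88 CPM in untreated cells. All transfected libraries lay above all untreated ones. Over untreated cells BBC3 rose 1.51-fold under FOXF1 plasmid (log2 fold change 0.59 ± 0.14 SE, adjusted p = 0.00621) and 1.63-fold under empty vector (0.70 ± 0.14 SE, adjusted p = 0.000454; edgeR). Untreated replicate 1, with 185 reads, was the lowest, and without it the log2 fold change was 0.42 for the FOXF1 plasmid, where the call was lost (adjusted p = 0.0784), and 0.54 for the empty vector (adjusted p = 0.00847). Between the FOXF1 plasmid and the empty vector it was -0.11 (95% interval -0.39 to 0.17, adjusted p = 0.856).

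BAX (chr19:48954815-48961798, plus strand), the effector that permeabilises the outer mitochondrial membrane, had 98.5, 102 and 95.4 CPM with the FOXF1 plasmid, 93.3, 90.7 and 83.9 CPM with the empty vector and 115, 108 and 107 CPM in untreated cells. The 3 groups did not overlap, with the untreated libraries highest and the empty vector libraries lowest. BAX fell with the empty vector against untreated cells (log2 fold change -0.30 ± 0.06 SE, adjusted p = 0.00113), while its -0.16 with the FOXF1 plasmid against untreated cells (adjusted p = 0.134) and its 0.14 against the empty vector (95% interval 0.01 to 0.27, adjusted p = 0.502; edgeR) did not pass. The fall depended on the scaling: by library totals alone the log2 fold change was -0.05 (adjusted p = 0.509), whereas without mitochondrial genes it was -0.31 (adjusted p = 0.000751). With GC and length offsets the fall with the empty vector was -0.23 on the log2 scale (adjusted p = 0.00234 in edgeR). With these offsets BAX was called lower with the FOXF1 plasmid against untreated cells too (-0.16, adjusted p = 0.0427). Within a library, which needs no scaling, there were 0.104, 0.103 and 0.106 reads of BBC3 per BAX read with the FOXF1 plasmid. There were 0.123, 0.114 and 0.139 with the empty vector, against 0.046, 0.068 and 0.074 in untreated cells. Such a ratio does not remove a trend with GC content, and the longest BBC3 and BAX transcripts have 69.7% and 58.9% GC.

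PMAIP1, which encodes NOXA, another BH3-only protein, was rare. It had 1.84, 2.09 and 1.92 CPM with the FOXF1 plasmid (74, 71 and 72 reads) and 2.12, 2.22 and 2.88 CPM with the empty vector (84, 98 and 124 reads), against 1.73, 1.60 and 1.73 CPM in untreated cells (61, 58 and 61 reads). The groups did not overlap, and the FOXF1 plasmid libraries lay between the others. The log2 fold change was 0.21 (95% interval -0.29 to 0.70, adjusted p = 0.674) for FOXF1 plasmid over untreated, 0.51 (0.03 to 1.00, adjusted p = 0.131) for empty vector over untreated, and -0.31 (-0.78 to 0.17, adjusted p = 0.725; edgeR) for FOXF1 plasmid over empty vector. The exact 95% counting interval of a single library was wide, at 1.44 to 2.31 CPM for FOXF1 plasmid replicate 1, which reaches into the range of the other groups.

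FAS, the death receptor of the cell surface, varied more within groups than between them. It had 2.51, 1.79 and 1.68 CPM with the FOXF1 plasmid, 1.29, 1.63 and 2.72 CPM with the empty vector and 1.36, 2.37 and 1.62 CPM in untreated cells. Every pair of groups overlapped. The coefficient of variation was 22.5%, 39.8% and 29.3% in that order of groups, against 11.5%, 11.2% and 12.5% from counting alone. The log2 fold change was 0.09, 0.16 and 0.08 for FOXF1 plasmid over empty vector, FOXF1 plasmid over untreated and empty vector over untreated, with intervals that reached from -0.51 to 0.75 over the 3 comparisons. FAS shares 380 exonic bases with ACTA2 on the opposite strand, 8.94% of its exons. The strand setting of the counting is not given in the sources used here, so the origin of reads there is uncertain. FASLG, the ligand of FAS, had no read in any library.

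The metabolic targets TP53I3 and RRM2B did not pass in any comparison. TP53I3 (chr2:24077433-24085861, minus strand) encodes a quinone oxidoreductase that p53 induces in cell death. It had 9.17, 7.71 and 7.63 CPM with the FOXF1 plasmid, 8.93, 7.76 and 7.23 CPM with the empty vector and 7.93, 8.79 and 9.47 CPM in untreated cells, with all groups overlapping. Its log2 fold changes were 0.04, -0.09 and -0.13 for FOXF1 plasmid over empty vector, FOXF1 plasmid over untreated and empty vector over untreated (adjusted p = 0.959, 0.757 and 0.56; edgeR), and each interval stayed within -0.41 to 0.32. RRM2B encodes the p53-inducible small subunit of ribonucleotide reductase, which supplies deoxynucleotides for DNA repair (chr8:102204502-102239118, minus strand). It had 2.66, 2.12 and 3.04 CPM with the FOXF1 plasmid, 1.74, 4.22 and 3.63 CPM with the empty vector and 2.50, 2.45 and 2.78 CPM in untreated cells.

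The spread of RRM2B was uneven across groups. With the empty vector the highest library had 2.42 times the level of the lowest (186 against 69 reads), and the coefficient of variation was 40.5%, against 17.8% with the FOXF1 plasmid and 6.82% in untreated cells. Empty vector replicate 1 was below every other library, and the other two empty vector libraries were above every other library. RRM2B had a log2 fold change of 0.31 for the empty vector against untreated cells (95% interval -0.19 to 0.82, adjusted p = 0.419), which became 0.61 with a call without empty vector replicate 1 (adjusted p = 0.0427; edgeR). In that fit 3897 genes were called over all tested genes, against 3209 with all libraries. Across 16213 genes the fold changes of empty vector over untreated were lower at higher GC content (Spearman's rho -0.270, genes not being independent replicates). The longest RRM2B transcript has 36.4% GC, and with GC and length offsets its log2 fold change there was 0.042 (adjusted p = 0.927).

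**Figure D3:**
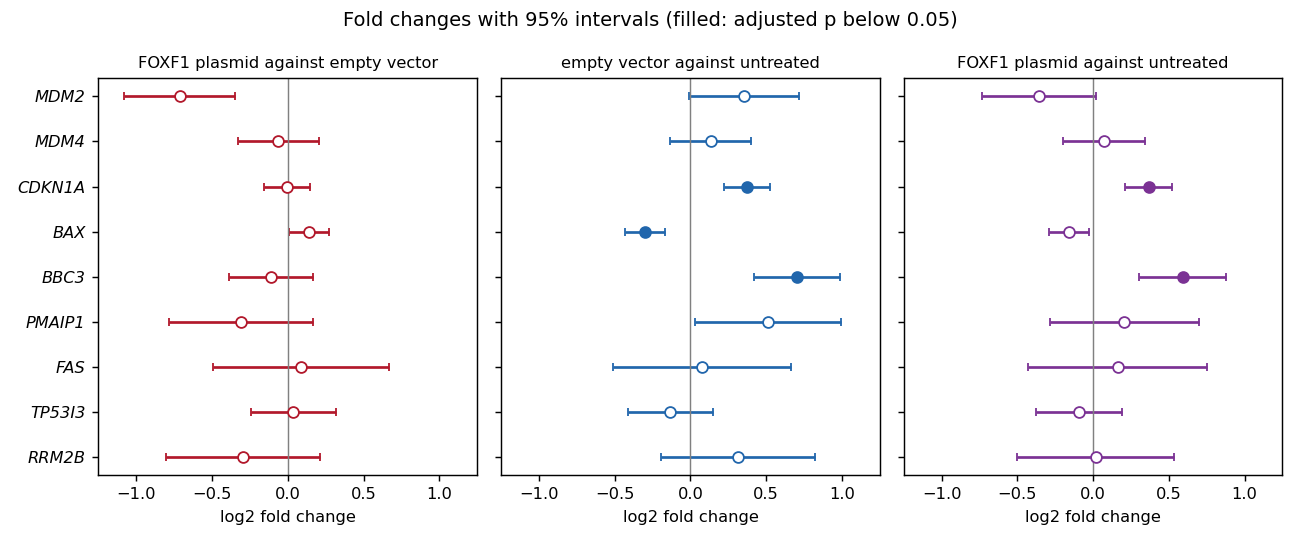
Log2 fold changes of the 9 genes with 95% intervals from the edgeR quasi-likelihood fit over 9 libraries, 1 panel for each comparison. Filled points have an adjusted p below 0.05. There are 0 filled points for FOXF1 plasmid over empty vector, 2 for FOXF1 plasmid over untreated and 3 for empty vector over untreated.

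Counted together, 2 of the 9 genes rose (CDKN1A and BBC3) and 0 fell under FOXF1 plasmid over untreated cells. Among all tested genes 8.52% were called there, 4.63% as higher and 3.89% as lower. Under empty vector over untreated cells 2 rose (CDKN1A and BBC3) and 1 fell (BAX), and 19.6% of all genes were called, 10.2% as higher and 9.37% as lower. Before adjustment, p was below 0.05 for 2 as higher and 1 as lower under FOXF1 plasmid (21.9% of all genes, 11.8% and 10.1% by direction). Under empty vector it was for 3 as higher and 1 as lower (31.5% of all genes, 17.4% and 14.2% by direction). The median log2 fold change of the 9 over untreated cells was 0.07 for the FOXF1 plasmid and 0.31 for the empty vector, beside 0.02 and 0.04 for all tested genes. It was -0.06 for FOXF1 plasmid over empty vector, beside -0.01. The groups did not overlap, in the direction of the fold change, for 3 genes as higher and 1 as lower with the empty vector (17.4% and 15.3% of all genes). For FOXF1 plasmid over untreated this held for 3 as higher and 2 as lower (14.1% and 12.6%), and against the empty vector for 1 as higher and 2 as lower (7.33% and 5.68%). With the mitochondrially encoded genes left out, 2 and 3 of the 9 genes were called under FOXF1 plasmid and under empty vector, the same genes in the same directions. By library totals alone the 3 calls with the empty vector became 5, all higher: CDKN1A, BBC3, MDM2, MDM4 and PMAIP1. Over all 16366 tested genes that setting called 5721 as higher and 338 as lower, and it moved the median log2 fold change up by 0.245.

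Other targets of p53 were read from a list of 65 genes, of which 58 were tested. With the empty vector 13 rose and 5 fell against untreated cells, beside 10.2% and 9.37% of all tested genes, with a median log2 fold change of 0.17 (0.04 for all genes). GDF15, a stress-induced secreted factor, rose by 2.34 on the log2 scale (1.39 against 0.273 CPM, adjusted p = 9.98e-05 in edgeR). NDRG1, which also responds to low oxygen, rose by 1.83 (adjusted p = 4.29e-18 in edgeR), and IGFBP3, a binding protein of insulin-like growth factors, by 1.52 (adjusted p = 1.03e-10 in edgeR). The largest falls were of CYFIP2 (-0.31), PHPT1 (-0.29) and NINJ1 (-0.27), which by library totals alone stood at -0.068, -0.040 and -0.028 without a call. Under FOXF1 plasmid 10 rose and 0 fell, beside 4.63% and 3.89% of all genes, with a median of 0.13 (0.02 for all genes), led by GDF15 (2.42), NDRG1 (1.69) and EDA2R, a receptor of the tumour necrosis factor family (1.35; 1.64 against 0.635 CPM). The EDA2R call was lost without FOXF1 plasmid replicate 2 (1.02) and without untreated replicate 1 (1.09). Both comparisons share the untreated libraries. Of the 58, 0 passed for FOXF1 plasmid over empty vector (edgeR; before adjustment 4 had p below 0.05, 2 as higher and 2 as lower, beside 9.43% of all genes), with a median of -0.03. Many genes of this list have inducers other than p53.

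Among 28 regulators of p53 and MDM2, of which 26 were tested, 5 rose and 4 fell with the empty vector against untreated cells, beside 10.2% and 9.37% of all genes (median log2 fold change 0.04, as for all genes). RCHY1, a ubiquitin ligase of p53, rose by 0.73, the MDM2-binding transcription factor YY1 by 0.61 and the checkpoint kinase CHEK2 by 0.53. PSME3, a proteasome activator that promotes the degradation of p53 by MDM2, fell by 0.59 on the log2 scale, and the ribosomal proteins RPL5 and RPL11, which bind and inhibit MDM2 when ribosome assembly fails, fell by 0.29 and 0.23. The RCHY1 call was lost in 5 of 21 alternatives, among them the fits without empty vector replicate 3 (0.48, adjusted p = 0.232 in edgeR) and without untreated replicates 1 or 2. By library totals alone the values of RPL5 and RPL11 became -0.045 and 0.013 without a call, and RPL11 was also not called without untreated replicate 2 or empty vector replicates 2 or 3. The FOXF1 plasmid group had 1 rise (YY1, 0.44) and 2 falls (PSME3, -0.38, and RPL5, -0.20) over untreated cells, beside 4.63% and 3.89% of all genes, with a median of 0.04. This RPL5 call was lost in 9 of 21 alternatives, including each fit without 1 of the FOXF1 plasmid or untreated libraries. None of the 26 passed against the empty vector with edgeR (before adjustment 5 had p below 0.05, 2 as higher and 3 as lower, beside 9.43% of all genes; median -0.02). TP73, the other relative of p53, was at 17.7 ± 2.33, 17.1 ± 0.826 and 19.2 ± 1.61 CPM with the FOXF1 plasmid, with the empty vector and in untreated cells (SD, n = 3).

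The death machinery around BAX, BBC3, PMAIP1 and FAS was followed in 31 genes of the BCL-2 family and the caspases, of which 28 were tested (2 of them, APAF1 and CASP6, are also in the target list). With the empty vector 7 rose and 2 fell against untreated cells, beside 10.2% and 9.37% of all genes, with a median log2 fold change of 0.23. CASP8, the initiator caspase that FAS recruits, rose by 0.95 (11.8 ± 1.38 against 6.12 ± 1.17 CPM, SD, n = 3; adjusted p = 1.7e-05 in edgeR), the caspase inhibitor XIAP by 0.53 and the survival protein MCL1, which NOXA binds, by 0.46. The XIAP groups overlapped, and its call was lost in 10 of 21 alternatives, including those without FOXF1 plasmid replicate 3, empty vector replicates 2 or 3 and untreated replicates 1 or 2 (adjusted p up to 0.28 in edgeR). CASP2 and BAK1, the counterpart of BAX, fell by 0.49 and 0.30 on the log2 scale, and by library totals alone stood at -0.24 and -0.056 without a call. The BAK1 call was also lost without untreated replicate 1. Under FOXF1 plasmid CASP8 rose by 0.88, MCL1 by 0.40 and BID by 0.25, CASP2 fell by 0.33, and in all 4 rose and 1 fell (median 0.10), beside 4.63% and 3.89% of all genes. The BID and CASP2 calls were both lost without FOXF1 plasmid replicates 2 or 3, and that of BID also without untreated replicates 1 or 2. None of the 28 passed for FOXF1 plasmid over empty vector (edgeR; before adjustment 4 had p below 0.05, 2 as higher and 2 as lower, beside 9.43% of all genes; median -0.04).

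Of 29 cyclins, cyclin-dependent kinases, their inhibitors and partners, all tested, 4 rose and 3 fell with the empty vector against untreated cells, near the 10.2% and 9.37% of all genes (median log2 fold change 0.09). CDKN1B, which encodes the p21 relative p27, rose by 1.09 (4.70 ± 1.08 against 2.21 ± 0.555 CPM, SD, n = 3; adjusted p = 0.000454 in edgeR), and the inhibitors CDKN2D and CDKN2C rose by 0.49 and 0.38. PLK1, a mitotic kinase, CCND1 (cyclin D1) and E2F1 fell by 0.25, 0.24 and 0.18 on the log2 scale, and their values became -0.0034, 0.0069 and 0.066 without a call when libraries were scaled by totals alone. The CCND1 call was lost in 10 of 21 alternatives, 6 of which left out 1 library (FOXF1 plasmid replicates 1 and 3, empty vector replicates 1 and 2, untreated replicates 1 and 3). The E2F1 call was lost in 8, among them those without empty vector replicate 3 or untreated replicates 1 or 2, and the CDKN2D call without empty vector replicate 3 or untreated replicates 2 or 3. Under FOXF1 plasmid 1 rose (CDKN2C, 0.34, not called without FOXF1 plasmid replicate 2 or untreated replicates 1 or 2) and 0 fell, beside 4.63% and 3.89% of all genes (median -0.01). None of the 29 passed for FOXF1 plasmid over empty vector (edgeR; before adjustment 2 had p below 0.05, 1 as higher and 1 as lower, beside 9.43% of all genes; median -0.05).

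The remaining list held 13 genes of deoxynucleotide supply and quinone reduction, the setting of RRM2B and TP53I3, all tested. With the empty vector 4 rose and 3 fell against untreated cells, beside 10.2% and 9.37% of all genes (median log2 fold change 0.12). DCK, a deoxynucleoside kinase, rose by 0.60 and CRYZ, a quinone reductase, by 0.51. The DCK call was lost in 10 of 21 alternatives, among them the fits without empty vector replicate 3 (0.22), untreated replicate 1 or FOXF1 plasmid replicates 2 or 3, and that of CRYZ in 6, among them those without empty vector replicates 2 or 3 or untreated replicates 1 or 3. RRM2, the small reductase subunit of dividing cells and counterpart of RRM2B, fell by 0.37 on the log2 scale (87.0 ± 5.83 against 112 ± 2.27 CPM, SD, n = 3; adjusted p = 0.000113 in edgeR), with DGUOK (-0.33) and TK1 (-0.24). By library totals alone RRM2, DGUOK and TK1 stood at -0.12, -0.088 and 0.0058 without a call, and TK1 was also not called without untreated replicate 1 or empty vector replicate 2. Under FOXF1 plasmid RRM2 fell by 0.29 (-0.14 without a call by totals alone) and was the single call against untreated cells, beside 8.52% of all genes (median 0.04). None of the 13 passed for FOXF1 plasmid over empty vector (edgeR; before adjustment 3 had p below 0.05, 1 as higher and 2 as lower, beside 9.43% of all genes; median -0.08).

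**Figure D4:**
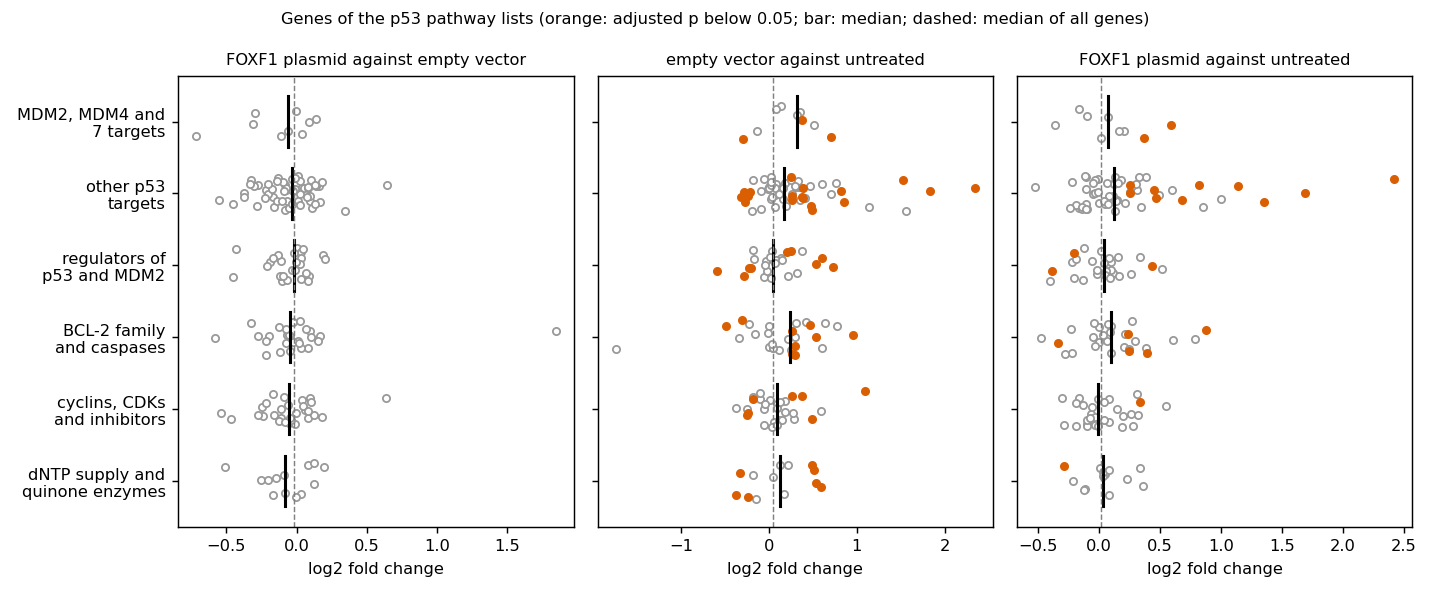
Log2 fold changes of the 9 genes and of the 5 pathway lists, 1 panel for each comparison (x axes differ in range). Each point is a gene, orange where its adjusted p is below 0.05, black bars are list medians and the dashed line is the median of all tested genes. There is no orange point for FOXF1 plasmid over empty vector.

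The genes whose levels most resembled those of MDM2 over the 9 libraries were sought among 10605 genes whose mean log2 CPM reached 1, by the root mean square difference of centred log2 CPM. They were ORC5 (0.087), SMC5 (0.099), STRN3 (0.116), DNAJC10 (0.135) and EMC2 (0.145). Between FOXF1 plasmid and empty vector ORC5 had a log2 fold change of -0.88 and the others -0.61, -0.57, -0.51 and -0.42 in that order. None was a member of the lists above. For CDKN1A the closest were DLG4 (0.045), IER5 (0.046), SRPRB (0.047), HLA-E (0.048) and LOXL3 (0.048). Their log2 fold changes with the empty vector over untreated cells were 0.30 to 0.42. Both sets were chosen for their likeness over these same libraries, which fixes the direction of these fold changes, so they are given as a description. Among the other 8 genes described here, the closest to MDM2 was PMAIP1, at 0.277. The closest to CDKN1A were MDM4, at 0.171, and PMAIP1, at 0.173, neither of which passed the test in any comparison with TMM scaling.

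**Figure D5:**
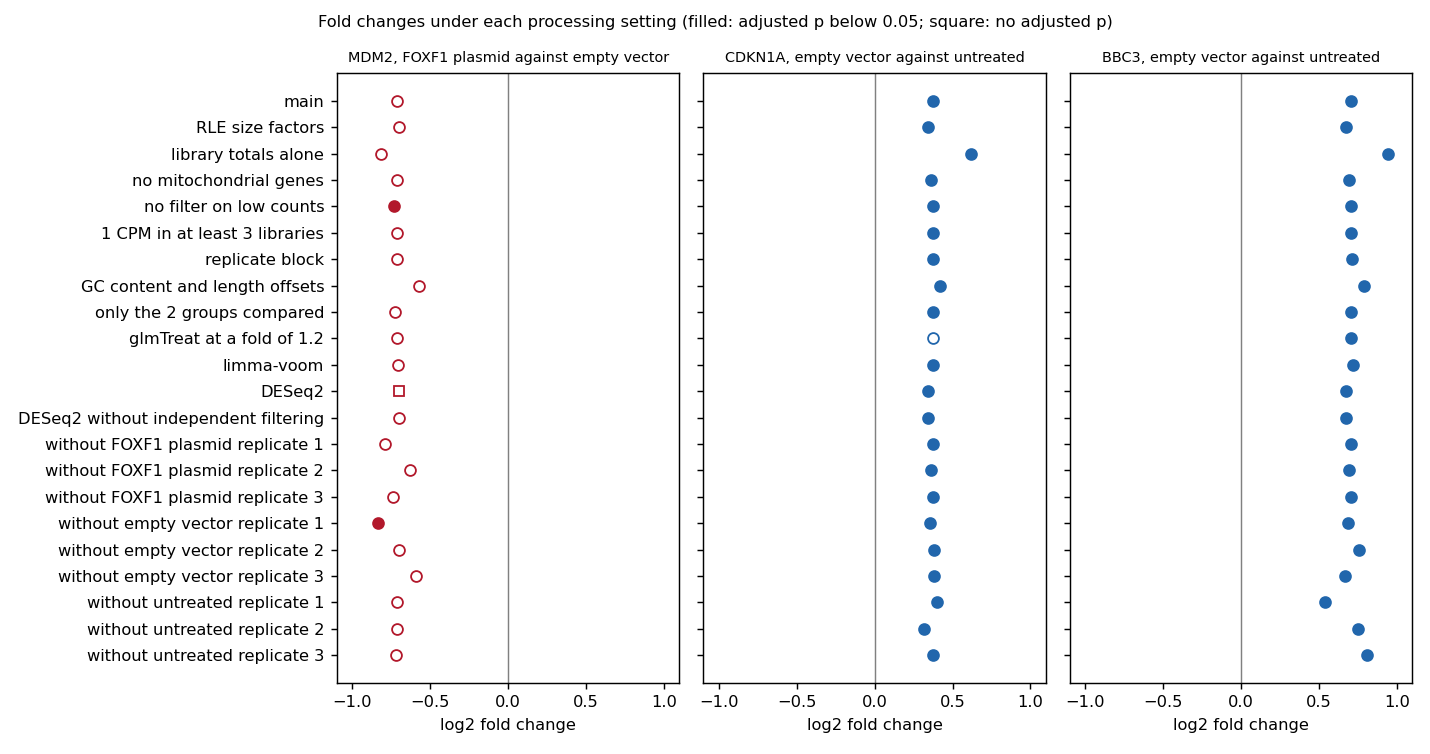
Log2 fold changes of MDM2 (FOXF1 plasmid against empty vector), CDKN1A and BBC3 (empty vector against untreated cells) under each processing setting. Filled points have an adjusted p below 0.05, and the square marks a fit without an adjusted p. MDM2 lies between -0.84 and -0.57 in every setting shown and passes in 2 of 21 alternatives, whereas BBC3 passes in all 21.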

How the data were processed

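The authors sequenced 9 libraries made with a stranded mRNA kit, per the labels' protocols, and deposited 1 table of raw read counts per gene. The submitters' processing notes name bcl2fastq, STAR 2.5.2b, HTSeq and GRCh38. The strand setting of the counting is not given in the sources used here. From these counts, 16366 of 64253 genes passed edgeR's filterByExpr (minimum count 10), libraries were scaled by TMM, and 1 quasi-likelihood model over the 3 groups was fitted in edgeR 4.0.16 (R 4.3.3), with Benjamini-Hochberg adjustment over all tested genes. CPM, the usual library-scaled count unit, uses the TMM-scaled library sizes, and levels per kb divide by union exon length in GENCODE 29. Intervals of single libraries are exact Poisson intervals at 95% and, like limits for 0 reads, cover counting error only. The alternatives used limma 3.58.1 and DESeq2 1.42.0, and the fits were tested on simulated data with 200 changed genes. The 9 genes, the 5 lists and the tests were chosen with earlier results of these data known. Named list genes are the up to 3 called genes with the largest rise and the up to 3 with the largest fall per list and comparison, and genes like MDM2 or CDKN1A are the 5 with the smallest root mean square difference of centred log2 CPM (prior count 2), clone-style, ribosomal and pseudogene symbols left out. TP63, FASLG, TP73 and the ratios of reads were named outside this rule, after their values were seen. One gene that this rule names is not reported here.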

Additional observations from a re-analysis of the deposited data

How the results depend on the processing

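Each result was recomputed under 21 alternatives, 1 of them (DESeq2 without independent filtering) chosen after seeing the data. Of the 9 genes, 3 were called with the empty vector against untreated cells, which became 5 by library totals alone and 1 with glmTreat at a fold of 1.2. For FOXF1 plasmid over untreated 2 were called, and 0 with glmTreat. Between FOXF1 plasmid and empty vector 0 were called, and 1 with no filter on low counts. Leaving out single libraries gave 3 to 4, 1 to 2 and 0 to 1 calls in that order. The calls of 2 and 0 became 1 without untreated replicate 1 and without empty vector replicate 1. Scaling by library totals alone shifted the median of all genes by 0.245, 0.148 and -0.0981 on the log2 scale in the same order of comparisons.

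Over all genes, 3209 calls with the empty vector against untreated cells became 6059 by totals alone (5721 higher and 338 lower) and 689 with glmTreat, and 2092 to 3897 without single libraries. The 1394 calls with the FOXF1 plasmid against untreated cells became 2500 by totals alone (2320 higher and 180 lower), 2149 with GC and length offsets, 195 with glmTreat, and 817 to 1729 without single libraries. The 9 calls for FOXF1 plasmid over empty vector became 16 with RLE size factors, 4 without mitochondrial genes, 96 with no filter on low counts (56 higher and 40 lower), 2 with glmTreat, 92 with DESeq2, 20 with DESeq2 without independent filtering, and 1 to 326 without single libraries. DESeq2 gave no adjusted p to 8 of the 9 genes there, and without independent filtering all 9 had one. Why the counts of calls changed was not tested.

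The replicate numbers in the titles were not shown to pair the samples, since same-numbered libraries correlated at -0.0904 to 0.0837 and differently numbered ones at -0.0801 to 0.131 in their deviations from the group means, and not every library correlated best with its own number. With the number as a replicate block, 3, 2 and 0 of the 9 genes were called as without it, and the 9 calls over all genes against the empty vector became 16.

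Log2 fold changes that changed sign were not called in either form, except for 4 list genes called lower with the empty vector, which by totals alone stood at 0.0069 (CCND1), 0.066 (E2F1), 0.013 (RPL11) and 0.0058 (TK1). For FOXF1 plasmid over empty vector, CDKN1A stood at 0.0075 with RLE size factors and with both forms of DESeq2, and at -0.035 to 0.026 without single libraries. There MDM4 stood at 0.064 with GC and length offsets, TP53I3 at -0.058 by totals alone, -0.033 with offsets and -0.056 to 0.13 without single libraries, and FAS at -0.012 by totals alone and -0.12 to 0.45 without single libraries. With the empty vector against untreated cells, MDM4 stood at -0.0014 and FAS at -0.16 with offsets, FAS at -0.29 to 0.33 without single libraries, and TP53I3 at 0.11 by totals alone. For FOXF1 plasmid over untreated, TP53I3 stood at 0.051 by totals alone, RRM2B at -0.025 with offsets and -0.11 to 0.13 without single libraries, FAS at -0.040 to 0.41 and MDM4 at -0.010 to 0.18. In the empty vector group the coefficients of variation of FAS, RRM2B and MDM2 (39.8%, 40.5% and 17.1%) were above those of counting alone (11.2%, 8.54% and 6.50%).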
